A study of Homo sapiens with 4 samples.

Results

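The nuclear genes for subunits of the oxidative phosphorylation complexes were examined in SKOV3, a long-established cell line from a human ovarian carcinoma, on 4 Affymetrix expression arrays. Of these, 2 came from cells treated with rhSTIP1, read as the recombinant form of the human HSP70 and HSP90 cochaperone STIP1, and 2 from control cells that got no rhSTIP1. The labels state neither dose nor duration, nor whether controls got a vehicle. No label tells whether the 2 arrays of a group stem from different cultures, and p-values therefore measure the spread between these RNA samples alone, which may be technical. Genes were chosen by symbol in the platform annotation: NDUFA, NDUFB, NDUFC, NDUFS and NDUFV without the NDUFAF assembly factors for complex I, SDHA to SDHD for complex II, UQCR for complex III, COX4 to COX8 for complex IV and ATP5 for complex V. This gave 77 protein-coding genes of 19775 with a probe set of their own. They were 33 genes of complex I, 3 of complex II, 6 of complex III, 17 of complex IV and 18 of complex V. A further 6 matching symbols belonged to genes that do not code for protein, 2 to read-through genes and 5 to genes (NDUFC2, NDUFS5, NDUFS8, UQCRH and UQCRHL) found only in probe sets that carry several symbols, and these were not analysed here. Of several probe sets for a gene, the one with the highest mean over the 4 arrays was used.

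Oxidative phosphorylation takes place in the inner mitochondrial membrane. Complex I oxidises NADH and complex II oxidises succinate, both passing electrons to ubiquinone, complex III passes them on to cytochrome c, and complex IV, cytochrome c oxidase, delivers them to oxygen. Complexes I, III and IV pump protons, and complex V, ATP synthase, uses the returning protons to make ATP. Complex II is encoded wholly in the nucleus, and the other complexes join many nuclear subunits to a few from mitochondrial DNA. Several complex IV subunits exist as paralogues that replace each other by tissue.

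Cell type markers were read as summed signals, to be compared between arrays but not between lists. Epithelial and ovarian carcinoma genes had summed signals of 54534 and 57348 on the rhSTIP1 arrays and 51253 and 50791 on the control arrays over 10 genes, although MUC16 stayed at or under 14.2 on all arrays. WT1 was dim, at 37.3 and 118 with rhSTIP1 and 91.0 and 97.8 in controls. CDH1 (E-cadherin) had 521 and 2110 with rhSTIP1 and 299 and 1355 in controls, array 2 being higher in both groups. Fibroblast genes summed to 516 to 664 with rhSTIP1 and 433 to 621 in controls over 6 genes. The 3 measured leukocyte genes all lay below the mean signal of 69.4 that a gene had to reach to be tested. As a sign of RNA quality, the ACTB control probe sets gave 3′ over 5′ ratios, higher in degraded RNA, of 2.62 and 8.79 on rhSTIP1 arrays 1 and 2 and 2.74 and 2.45 on control arrays 1 and 2. The GAPDH ratios were 0.992 and 1.32 with rhSTIP1 and 0.987 and 1.16 in controls, higher on array 2 in both groups.

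The subunit genes differed little between the groups. Of the 77 genes 74 reached the tested level, and their log2 fold changes, rhSTIP1 minus control on the log2(signal + 16) scale, ran from −0.43 (COX6A2) to 0.30 (NDUFA5), with a median of 0.09 against 0.02 over all 12296 tested genes. No subunit gene differed by 1.5-fold, and the largest change in either direction was 1.35-fold. Both rhSTIP1 arrays lay above both controls for 9 genes, or 12.2%, where the same held for 14% of all tested genes. They lay below both controls for 1 gene, COX6A2, or 1.35%, where the same held for 14.9% of all tested genes. A separation of at least 1.5-fold was found for 0 subunit genes in either direction, against 1.9% of all genes higher and 3.79% lower.

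By limma's two-sided test 0 of the 74 passed at an adjusted p of 0.05, as did 0% of all tested genes, and each had an adjusted p of 0.999. At an unadjusted p under 0.05 there were also 0, against 1.04% of all genes higher and 2.64% lower. The width of the intervals shows what sizes of change the spread between these RNA samples leaves possible. That spread may be technical, and the fit did not pair same-numbered arrays. The 95% confidence interval of the log2 fold change lay within a change of 1.5-fold either way for 39 of the 74 genes, or 52.7%, compared with 8.22% of all tested genes. It lay within 2-fold for 73, the exception being the dim COX6A2 (−1.38 to 0.52). The subunit probe sets were bright, with a median mean signal of 8714 against 853 over all tested genes, and 71 of the 74 had a mean of at least 1000. Their median standard error was 0.20, against 0.27 for all tested genes.

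**Figure D1:**
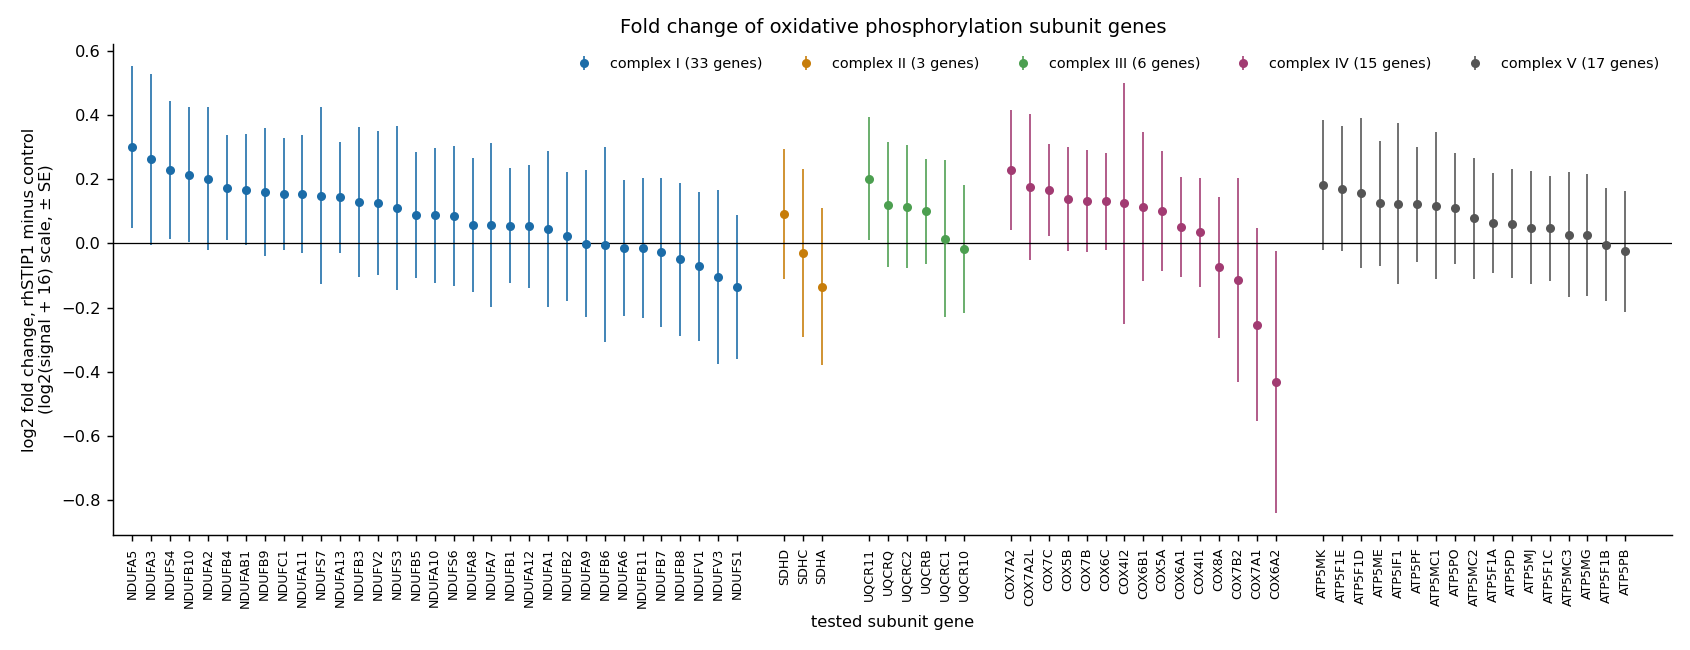
Log2 fold change (rhSTIP1 minus control, log2(signal + 16) scale) of each tested subunit gene, with its standard error, from 2 rhSTIP1 and 2 control arrays, ordered within complexes I to V. Values lie between −0.43 and 0.30, and COX6A2, a dim probe set, is the lowest.

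More of these genes were above 0 than below, 56 (75.7%) against 18, where 53.2% of all tested genes were above 0. Median centring moved all genes alike, giving 65 above and 9 below and a median of 0.13 against 0.06 for all genes, so that the subunit genes lay 0.07 above the rest with either scaling. With quantile normalization the split was 43 above and 31 below, with a median of 0.02 against 0.03 for all genes. Without rhSTIP1 array 1 the median was −0.04, against 0.03 for all genes, with 27 subunit genes above 0. Without rhSTIP1 array 2, the array with the high ACTB ratio, it was 0.20 against −0.000163, with 70 above 0. Without control array 1 the median was 0.17 against −0.00505, with 66 above 0. Without control array 2 it was 0.00302 against 0.02, with 37 above 0.

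**Figure D2:**
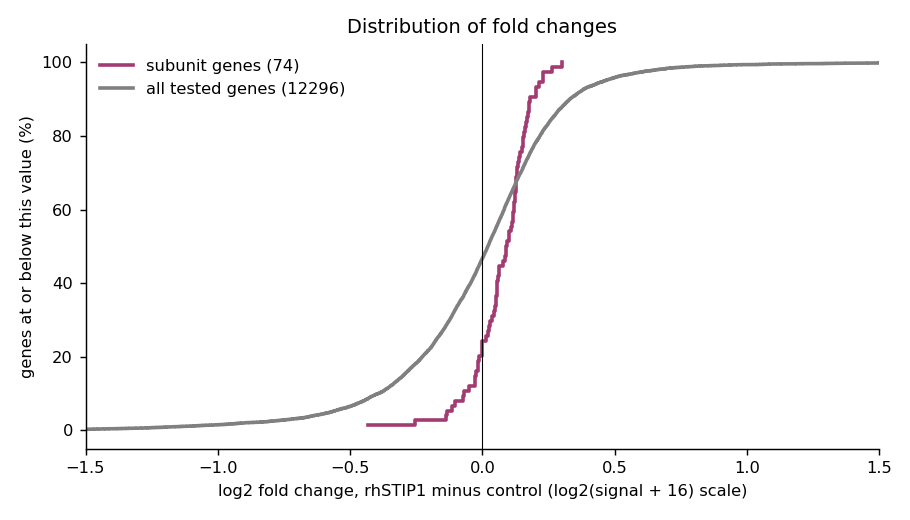
Cumulative share of genes (%) against log2 fold change, rhSTIP1 minus control, for the 74 tested subunit genes and all 12296 tested genes. The subunit genes form a narrow, steep curve with a median of 0.09, and the axis ends at 1.5 in either direction, leaving out the most changed of all genes.

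The subunit genes, chosen by symbol but with earlier results of these data known, shared a pattern across the arrays. Array 1 gave a higher value than array 2 within the rhSTIP1 group for 70 of the 74 genes (94.6%) and within the controls for 62 (83.8%). Over all tested genes these shares were 46.4% and 46.8%. The mitochondrial ribosomal proteins showed nearly the same, with 68 of 75 genes (90.7%) in the rhSTIP1 group and 59 (78.7%) in the controls, so the pattern was not particular to the subunit genes. The GAPDH ratio, higher on array 2 in both groups, moved with this order, but within the controls the ACTB ratio was lower on array 2. The median signal over probe sets was 69.0 on each rhSTIP1 array and 66.0 and 79.2 on control arrays 1 and 2. The subunit genes were brighter than all tested genes, with a median mean signal of 8714 against 853, and genes of equal brightness were not compared. The part of RNA quality, array scaling and brightness in the order was not tested. The median gap between the arrays was 0.27 on the log2 scale within the rhSTIP1 group and 0.17 within the controls, whereas the median size of the group difference was 0.11. For 71 genes the group difference was smaller than the larger of the replicate gaps, which held for 81.9% of all tested genes. The 3 others were COX7C, COX7B and NDUFA13, where the groups differed by 0.17, 0.13 and 0.14 and the larger replicate gaps were 0.07, 0.07 and 0.14.

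The highest of the 4 values fell on rhSTIP1 array 1 for 61 of the 74 genes, or 82.4%. This held for 24.7% of all tested genes and 52% of the mitochondrial ribosomal proteins. Among the subunit genes the highest value fell on rhSTIP1 array 2 for 0 genes, on control array 1 for 12 and on control array 2 for 1. The lowest value fell on control array 2 for 39 genes and on rhSTIP1 array 2 for 26. After centring each gene on its mean, the median of the subunit genes was 0.17 and −0.08 on rhSTIP1 arrays 1 and 2 and 0.04 and −0.13 on control arrays 1 and 2. Complexes I, III and V each had their highest median on rhSTIP1 array 1, at 0.17, 0.21 and 0.18, as did complex IV at 0.15. The 3 genes of complex II did not follow, with medians of 0.04 and 0.00315 on the rhSTIP1 arrays and 0.08 and −0.11 on the controls. These genes are measured in the same 4 RNA samples, so their agreement across arrays is not independent evidence gene by gene.

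**Figure D3:**
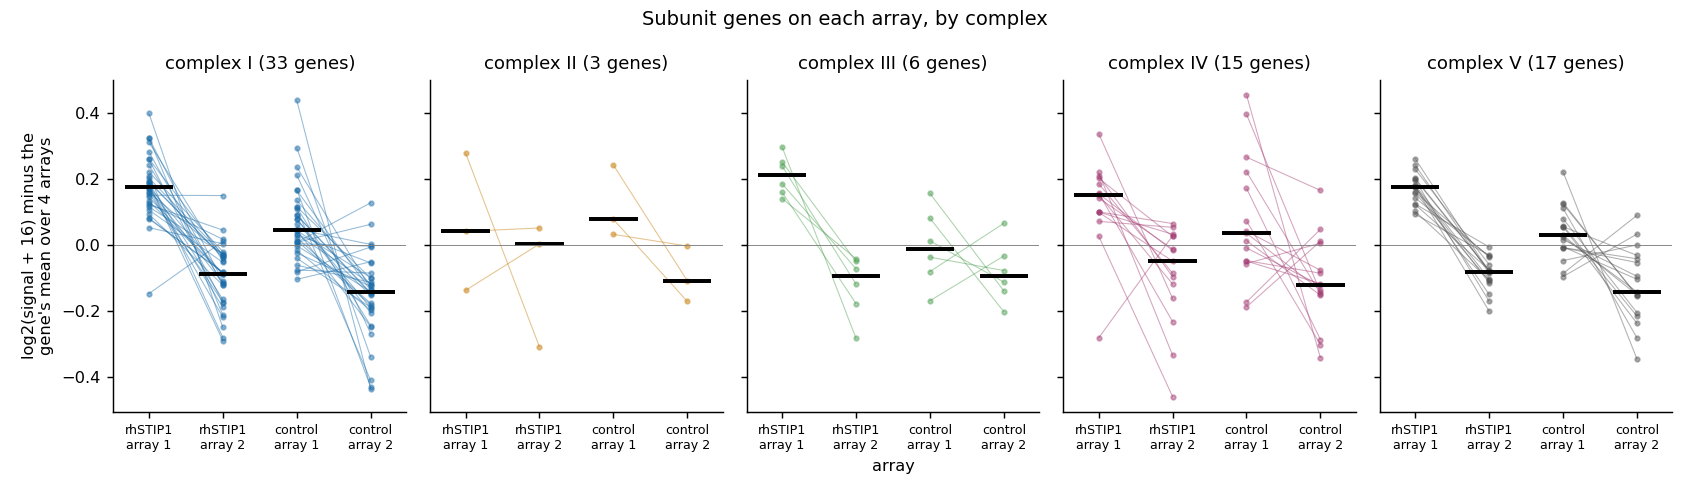
Log2(signal + 16) of each tested subunit gene minus its mean over the 4 arrays, by complex, for rhSTIP1 arrays 1 and 2 and control arrays 1 and 2; thin lines join the arrays of a group and black bars are medians. In complexes I, III, IV and V the median is highest on rhSTIP1 array 1, and array 1 lies above array 2 in both groups.

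The promoters of these genes were searched for motifs long associated with respiratory chain genes. Whether the motifs go with the order of the arrays was not tested. RefSeq promoters (GRCh38.p14, 250 bases before the start to 50 after it) matched 66 of the 77 genes. The motif of NRF1, the nuclear respiratory factor, was taken as GCGCATG, the ETS motif that GABPA binds as CCGGAAG, the YY1 motif as ATGGCGG and the TATA box as TATAAA, each searched on both strands. None of these strings contains another, and a full NRF1 palindrome counts as overlapping matches on both strands. NRF1 letters were found in 13 of the 66 promoters (19.7%), against 4.67% of all promoters of that length and 7.51% of those of the tested genes. ETS letters were found in 18 (27.3%, against 10.7% of all promoters and 19.4% for tested genes), and YY1 letters in 17 (25.8%, against 5.72% and 10.4%). TATA letters were found in 7, or 10.6%, against 12% of all promoters and 5.47% for tested genes. Of the 66, 32 held none of the NRF1, ETS and YY1 letters. The median log2 fold change of tested genes was 0.09 with NRF1 letters (13 genes) and 0.10 without (51), 0.10 with ETS letters (18) and 0.09 without (46), and 0.06 with YY1 letters (17) and 0.11 without (47), with no test of these differences.

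Motif counts by complex rest on few promoters, and their differences were not tested. YY1 letters were found in 12 of 31 promoters of complex I, but in 1 of 14 of complex IV and 1 of 14 of complex V. Complex II had them in 1 of 2 and complex III in 2 of 5. ETS letters were found in 5 of 31 in complex I and in 5 of 14 in each of complexes IV and V. Complex II had ETS letters in 1 of 2 and complex III in 2 of 5. For NRF1 letters the counts from complex I to V were 6 of 31, 1 of 2, 0 of 5, 2 of 14 and 4 of 14. The promoters below show NDUFB4, a complex I gene with the smallest p among those with NRF1 letters, SDHD of complex II, which holds NRF1, ETS and YY1 letters, and the paralogues COX6A1 and COX6A2 of complex IV, of which the first is used in most tissues and the second in heart and skeletal muscle. Each is the 250 bases before the start in the direction of transcription, with NRF1, ETS, YY1 and TATA letters in capitals. NDUFB4 lies at chr3:120596086-120596335 (plus strand), SDHD at chr11:112086623-112086872 (plus strand), COX6A1 at chr12:120437863-120438112 (plus strand) and COX6A2 at chr16:31428361-31428610 (minus strand). COX6A1 carries NRF1 letters 217 and 174 bases before the start and ETS letters that begin 16 bases before the start, and COX6A2 only TATA letters, 201 bases before it.
NDUFB4: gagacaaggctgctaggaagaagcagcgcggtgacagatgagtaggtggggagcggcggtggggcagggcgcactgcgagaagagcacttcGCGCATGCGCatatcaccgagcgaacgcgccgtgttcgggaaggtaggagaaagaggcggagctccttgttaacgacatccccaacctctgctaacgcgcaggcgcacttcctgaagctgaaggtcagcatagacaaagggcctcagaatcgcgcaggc
SDHD: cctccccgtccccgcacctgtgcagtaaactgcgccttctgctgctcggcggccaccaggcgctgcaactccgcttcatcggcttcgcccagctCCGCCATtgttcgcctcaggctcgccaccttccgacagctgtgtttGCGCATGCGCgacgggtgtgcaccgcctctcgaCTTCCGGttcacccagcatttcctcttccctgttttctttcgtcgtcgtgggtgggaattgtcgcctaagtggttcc
COX6A1: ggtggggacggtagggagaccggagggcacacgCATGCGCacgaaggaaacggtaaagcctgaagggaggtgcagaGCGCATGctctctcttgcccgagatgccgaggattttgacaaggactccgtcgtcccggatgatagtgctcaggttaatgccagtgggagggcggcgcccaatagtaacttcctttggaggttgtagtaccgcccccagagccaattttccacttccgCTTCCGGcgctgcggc
COX6A2: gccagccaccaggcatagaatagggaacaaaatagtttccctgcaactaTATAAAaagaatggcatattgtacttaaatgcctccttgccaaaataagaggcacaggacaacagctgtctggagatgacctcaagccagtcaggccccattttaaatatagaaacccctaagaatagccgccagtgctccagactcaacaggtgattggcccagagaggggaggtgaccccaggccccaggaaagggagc

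Complex I held 24 genes above 0 and 9 below, with a median of 0.09. Of its 33 genes 6 (18.2%) were separated higher in both rhSTIP1 arrays, against 14% of all tested genes. Separated lower were 0, against 14.9%. NDUFA5, an accessory subunit of the arm that reaches into the matrix, had signals of 3175 and 3173 with rhSTIP1 and 3085 and 2147 in controls. The rhSTIP1 arrays gave nearly one value, and the low control array 2 made most of the difference of 0.30 ± 0.25 (SE, n = 2 in each group). NDUFB4, a subunit of the membrane arm, had 20843 and 17747 with rhSTIP1 and 17354 and 16737 in controls. All arrays of one group again lay above the other, by 0.17 ± 0.16, but rhSTIP1 array 2 was close to control array 1. NDUFS4, an accessory subunit needed for a stable matrix arm, had 5680.0 and 4634 with rhSTIP1 and 4608 and 4153 in controls, a log2 fold change of 0.23 ± 0.22. Here too the groups were apart by little, rhSTIP1 array 2 and control array 1 being nearly equal.

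The other separated genes of complex I were NDUFAB1, the mitochondrial acyl carrier protein (0.17 ± 0.17), NDUFC1 (0.15 ± 0.18) and NDUFA13, also called GRIM-19 (0.14 ± 0.17). NDUFB10, a membrane arm subunit, had signals of 12632 and 9346 with rhSTIP1 and 9974 and 8795 in controls. Its groups overlapped, since control array 1 lay above rhSTIP1 array 2, and its log2 fold change was 0.21 ± 0.21. Other subunits of the matrix arm lay on both sides of 0. NDUFV1, which binds NADH and flavin, had −0.07 ± 0.23, and NDUFS1, the large iron-sulfur subunit, −0.14 ± 0.22. NDUFV2 had 0.13 ± 0.22, NDUFS7 0.15 ± 0.28 and NDUFS3 0.11 ± 0.26, and the groups overlapped for each. NDUFS1 was the lowest of the complex and NDUFV3 next to it at −0.10. NDUFB6 showed the widest spread between controls among the complex I genes, 5707 and 3109, with 4446 and 3973 on the rhSTIP1 arrays between them.

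Complex II, which also works in the tricarboxylic acid cycle, was represented by 3 genes, and none was separated. Among all tested genes 14% were separated higher and 14.9% lower. SDHA, the flavoprotein that oxidises succinate, had 1484 and 1638 with rhSTIP1 and 1936 and 1515 in controls, −0.13 ± 0.24. The rhSTIP1 values lay partly between those of the controls. SDHC, a membrane anchor, had 3263 and 2167 with rhSTIP1 and 2748 and 2681 in controls, −0.03 ± 0.26, and the rhSTIP1 arrays enclosed the controls. SDHD, the other anchor, had 5919 and 5961 with rhSTIP1 and 6071 and 5108 in controls, 0.09 ± 0.20, with the rhSTIP1 values inside the control range. The 7 probe sets of SDHC, all above the tested level, differed between −0.45 and 0.32.

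Complex III had a median of 0.11 over 6 genes, 5 of them above 0. With 0 separated in either direction, it compares with 14% of all tested genes higher and 14.9% lower. UQCR11, a small subunit, had 12449 and 10099 with rhSTIP1 and 9298 and 10215 in controls, 0.20 ± 0.19. Control array 2 lay just above rhSTIP1 array 2, so the groups overlapped. Its second probe set above the tested level, at 456 and 253 with rhSTIP1 and 502 and 517 in controls, differed by −0.56, the opposite direction. UQCRQ and UQCRB, which sit near the ubiquinone site, had 0.12 ± 0.19 and 0.10 ± 0.16. UQCRQ had 19292 and 15056 with rhSTIP1 and 17289 and 14206 in controls. UQCRB had 19313 and 17025 with rhSTIP1 and 17674 and 16205 in controls. In both, each array 1 exceeded every array 2. The core protein UQCRC2 had 9556 and 7990.3 with rhSTIP1 and 8188 and 7960.5 in controls, 0.11 ± 0.19, and its partner UQCRC1 0.01 ± 0.24. In UQCRC1 the rhSTIP1 arrays, 7347 and 4914, enclosed the control values of 5653 and 6258.

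Complex IV had 11 of 15 tested genes above 0 and a median of 0.11. Its log2 fold changes had the widest range of the complexes, −0.43 to 0.23, against −0.14 to 0.30 in complex I. That width came from COX6A2 (−0.43, mean signal 73.3) and COX7A1 (−0.25, mean signal 324). The other tested genes lay between −0.11 (COX7B2) and 0.23 (COX7A2), within the range of complex I. COX7C, a small subunit, had 25675 and 25054 with rhSTIP1 and 23153 and 22084 in controls. Both rhSTIP1 arrays were above both controls and replicates lay close, with a log2 fold change of 0.17 ± 0.14, and its 3 probe sets agreed in direction at 0.11 to 0.27. COX7B was likewise separated, at 15954 and 15226 with rhSTIP1 and 14406 and 14028 in controls, 0.13 ± 0.16. COX6C had 26569 and 23865 with rhSTIP1 and 23913 and 22117 in controls, 0.13 ± 0.15, and overlapped by a small margin. COX5A and COX5B, which lie close to each other in the matrix part of the enzyme, had 0.10 ± 0.19 and 0.14 ± 0.16. COX7A2L, which helps join complexes III and IV into supercomplexes, had 10021 and 7087 with rhSTIP1 and 6959 and 7991 in controls, 0.18 ± 0.23, with rhSTIP1 array 1 alone above the rest.

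The paralogues of complex IV fell into bright and dim probe sets, and signals of different probe sets cannot be set against each other as amounts of RNA. COX4I1, the usual form of the largest nuclear-encoded subunit, had 19271 and 15978 with rhSTIP1 and 17858 and 16444 in controls, 0.03 ± 0.17. Its hypoxia-associated paralogue COX4I2 had 87.3 and 86.0 with rhSTIP1 and 71.2 and 85.6 in controls, 0.13 ± 0.37. COX4I2 was formally separated, with rhSTIP1 array 2 and control array 2 almost equal. COX6A1 had 20216 and 18244 with rhSTIP1 and 18151 and 18944 in controls, 0.05 ± 0.16, and overlapped. COX6A2, the muscle form, had 73.5 and 47.9 with rhSTIP1 and 89.6 and 82.5 in controls. It was the only subunit gene lower on both rhSTIP1 arrays than on either control, −0.43 ± 0.41. Its mean was 60.7 with rhSTIP1 and 86.0 in controls, so it reached the tested level of 69.4 through the controls alone, and its place in the test is tied to the side on which it was high.

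COX7A2 had 19075 and 16882 with rhSTIP1 and 17438 and 13451 in controls, 0.23 ± 0.19, the smallest unadjusted p of the complex at 0.26 by limma. Control array 1 nevertheless lay above rhSTIP1 array 2. COX7A1, the muscle form of that subunit, had 259 and 325 with rhSTIP1 and 424 and 287 in controls, −0.25 ± 0.30, and the groups overlapped. COX8A had 11500 and 8782 with rhSTIP1 and 12034 and 9313 in controls, −0.07 ± 0.22, with array 1 above array 2 in each group. COX6B1 had 8160 and 6598 with rhSTIP1 and 7944 and 5780.2 in controls, 0.11 ± 0.23, in the same array order. COX7B2, a paralogue of COX7B known from testis, was bright here, at 6088 and 4143 with rhSTIP1 and 7167 and 4121 in controls. Its arrays differed far more within groups than between them, −0.11 ± 0.32.

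Genes under the tested level got no test. COX6B2, a paralogue of COX6B1 known from testis, had 88.5 and 93.1 with rhSTIP1 and 31.1 and 5.18 in controls. Both rhSTIP1 arrays were higher, but the controls themselves differed widely at a signal where background cannot be told apart without detection calls. COX8C had 1.88 and 25.6 with rhSTIP1 and 4.55 and 2.04 in controls. ATP5MF, subunit f of ATP synthase, had 6.11 and 17.1 with rhSTIP1 and 38.7 and 12.7 in controls on the only probe set that carries its symbol alone. With no filter on dim genes, COX6B2 had a limma log2 fold change of 1.76, an unadjusted p of 0.0112 and an adjusted p of 0.999. COXFA4, a complex IV subunit formerly named NDUFA4, does not carry a matching symbol in the annotation. It had 7231 and 6342 with rhSTIP1 and 8397 and 6662 in controls, −0.14 ± 0.21, and its paralogue COXFA4L2 was under the tested level at 66.1 and 64.2 with rhSTIP1 and 24.1 and 60.9 in controls.

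**Figure D4:**
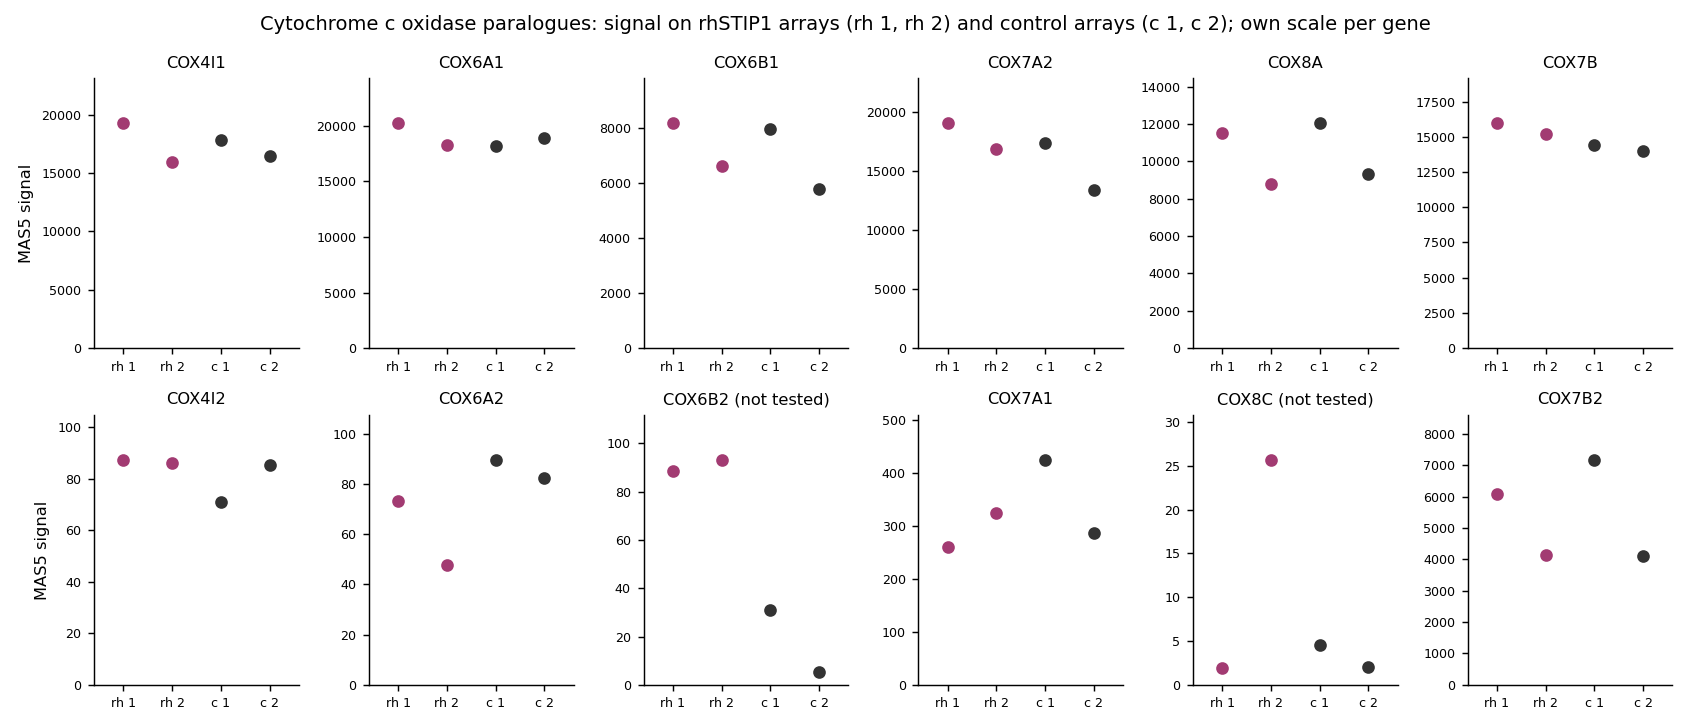
MAS5 signal of complex IV paralogues on rhSTIP1 arrays 1 and 2 (rh 1, rh 2) and control arrays 1 and 2 (c 1, c 2), each panel on its own scale from 0. COX6A2 is lower on both rhSTIP1 arrays (73.5 and 47.9, against 89.6 and 82.5), and COX6B2 and COX8C were under the tested level.

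Complex V had 15 of 17 tested genes above 0 and a median of 0.08. Separated genes numbered 0 in either direction, against 14% of all tested genes higher and 14.9% lower. ATP5MK, a small membrane subunit also called DAPIT, had 14279 and 11265 with rhSTIP1 and 12382 and 10104 in controls, 0.18 ± 0.20. ATP5F1E, the epsilon subunit of the rotor stalk, had 22734 and 18608 with rhSTIP1 and 20941 and 15950.3 in controls, 0.17 ± 0.19. ATP5PF, coupling factor 6 of the outer stalk, had 16973 and 14012 with rhSTIP1 and 15083 and 13313 in controls, 0.12 ± 0.18. In all 3 the order was rhSTIP1 array 1, control array 1, rhSTIP1 array 2, control array 2, so the groups interleaved. ATP5F1D, the delta subunit, had 4366 and 3475 with rhSTIP1 and 3843 and 3175 in controls, in the same order, and 0.16 ± 0.23.

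The alpha subunit, ATP5F1A, had 0.06 ± 0.16. The beta subunit, ATP5F1B, was among the genes nearest 0, at −0.0037 ± 0.18, and in both genes the groups overlapped. Subunit c, which forms the rotating ring, is encoded by 3 genes with different import sequences. ATP5MC1 had 1832 and 1673 with rhSTIP1 and 1708 and 1522 in controls, 0.12 ± 0.23. ATP5MC2 had 11636 and 9558 with rhSTIP1 and 10381 and 9610.3 in controls, 0.08 ± 0.19. ATP5MC3 had 16052 and 12791 with rhSTIP1 and 15468 and 12774 in controls, 0.03 ± 0.19. None of the 3 was separated, and in each the highest value was on rhSTIP1 array 1. ATP5MG, subunit g, had 22887 and 17747 with rhSTIP1 and 21837 and 17943 in controls, 0.03 ± 0.19. ATP5IF1, the inhibitor that blocks ATP hydrolysis by the enzyme, had 5581 and 4869 with rhSTIP1 and 5825 and 3927 in controls, 0.12 ± 0.25. The rhSTIP1 values lay within the control range. Its other probe sets above the tested level differed by −0.045 and −0.47, the opposite direction. In the latter, 340 and 343 with rhSTIP1 lay below 517 and 444 in controls.

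Other probe sets gave a partial check. The 77 genes had 151 probe sets, and 33 tested genes had more than 1 at or above the tested level. All such probe sets of a gene had the same sign in 21 of the 33 and both signs in 12, and the median spread between a gene's probe sets was 0.17 on the log2 scale, larger than the median fold change. None of the 54 other probe sets above the level differed by 1.5-fold. The chosen probe set of 42 of the 74 tested genes has a name ending that marks probes shared by several transcripts, so signal from near-identical transcripts or pseudogenes cannot be told apart there.

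Other genes of the pathway were read from the same test. Cytochrome c (CYCS) had 0.04 ± 0.18 and CYC1, the heme subunit of complex III, −0.02 ± 0.23. Of 53 assembly factors, which build the complexes without staying in them, 26 were above 0 and 27 below, with a median of −0.00201. Separated higher were 8 (15.1%, against 14% of all tested genes) and separated lower 6 (11.3%, against 14.9%). SURF1, a complex IV assembly factor, had 7027 and 5192 with rhSTIP1 and 4229 and 4385 in controls. Both rhSTIP1 arrays were higher, 0.49 ± 0.23, with an unadjusted limma p of 0.0655 and an adjusted p of 0.999. COX10, which makes heme for complex IV, was lower in both, at 218 and 169 with rhSTIP1 and 246 and 329 in controls, −0.53 ± 0.30, and SDHAF1, of complex II, had −0.44 ± 0.26 and was also separated lower. In complex I NDUFAF2 had 0.33 ± 0.26 and NDUFAF6 0.27 ± 0.23. In complex III TTC19 had 0.16 ± 0.25 and UQCC1 −0.11 ± 0.25, and in complex V DMAC2L had 0.31 ± 0.24 and TMEM70 −0.11 ± 0.21. SDHAF4 had 0.24 ± 0.29.

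Tricarboxylic acid cycle enzymes had a median of −0.06 over 11 genes. Separated lower was 1 (9.09%, against 14.9% of all tested genes) and separated higher 0 (against 14%). That gene was IDH3A, a subunit of the NAD-dependent isocitrate dehydrogenase, at −0.22 ± 0.25, and DLST had −0.15 ± 0.24. Regulators of mitochondrial biogenesis had a median of −0.07 over 16 genes, 3 separated lower (18.8%, against 14.9%) and 0 higher (against 14%). The 3 were TFB1M (−0.29 ± 0.25), TFB2M (−0.27 ± 0.24) and NRF1 (−0.19 ± 0.24). NRF1 had 698 and 619 with rhSTIP1 and 754 and 752 in controls. Mitochondrial ribosomal proteins, which translate the subunits encoded in mitochondrial DNA, had a median of 0.03 over 75 genes. Of these 6 were separated lower (8%, against 14.9%) and 2 higher (2.67%, against 14%). The 2 were MRPL40 at 0.20 ± 0.23 and MRPS5 at 0.16 ± 0.21. MRPL44 had 637 and 442 with rhSTIP1 and 937 and 885 in controls, −0.76 ± 0.27, with an unadjusted limma p of 0.0226 and an adjusted p of 0.999. MRPS30 was also lower in both rhSTIP1 arrays, −0.43 ± 0.23. None of these lists held a gene that passed over all genes tested. The 13 subunits encoded in mitochondrial DNA were not analysed here.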

How the data were processed

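The authors deposited an intensity per probe set on a linear scale for 4 arrays. According to the submitters' processing notes, the tools were MAS5 and Affymetrix Expression Console, version 1.1. MAS5 works on 1 array at a time and scales it to a common target, and the mean after trimming 2% from each end was 500.1 on every array. Detection calls were not used here. Probe set names came from the platform annotation, whose gene identifiers were looked up in a gene table of GRCh38.p14.

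Each of 19775 genes was represented by the probe set with the highest mean among those with exactly 1 symbol, and 12296 genes with a mean of at least 69.4, the median over probe sets, were tested. Groups were compared on log2(signal + 16) in limma 3.58.1 under R 4.3.3 (linear model, moderated variances with an intensity trend) and with Benjamini-Hochberg adjustment over all tested genes. Each gene had 2 residual degrees of freedom and 5.56 prior ones. Fold changes on this scale understate the change of dim genes. An exact two-sided permutation test of 1 gene cannot give a p below 0.333 with 2 arrays against 2, so genes whose arrays did not overlap were counted beside the test.

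The members and lists were chosen with earlier results of these data known. Values on all arrays were given for the 4 genes of each complex with the smallest p, the probe set with the highest signal in each complex, the paralogue sets and the SDH genes, and in other lists the 2 genes with the smallest p. Genes named beyond this rule, such as COX7B, COX7B2, NDUFB6, ATP5IF1, COX7A2L, UQCRC1, NRF1, MRPL40 and MRPS5, were chosen after their values were seen. The number of arrays limits the precision. On simulated data with 12296 genes, limma made 5 false calls and recovered 8 of 67 genes (11.9%) at a true change of 2-fold, 54 of 67 (80.6%) at 4-fold and 65 of 66 (98.5%) at 16-fold. Alternatives covered the pseudocount, filter, scaling, probe set, replicate block, eBayes settings and leaving out each array.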

Additional observations from a re-analysis of the deposited data

How the results depend on the processing

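No alternative called a subunit gene over all genes tested, and adjusted p for the named genes went no lower than 0.721. Counts moved as follows. At an unadjusted p under 0.05 by limma there was 1 subunit gene with no filter (COX6B2) and 1 with the mean of all probe sets (NDUFV1, −0.69). That mean takes in probe sets under the tested level. For NDUFV1 the dim probe set had a mean signal of 36.3 and differed by −1.31, where the chosen one differed by −0.07. Genes separated higher numbered 14 with the mean of all probe sets (18.9%, against 12.4% of all genes), where the main count was 9. Genes separated lower, of which the main count was 1, numbered 0 with the filter at the 70th percentile (14.3% of all genes), 2 with median centring (2.7%, against 12.5%), 3 with the mean of all probe sets (4.05%, against 17.3%) and 5 with probe sets chosen without shared-probe endings (7.14%, against 15.2%). That last choice applied only to genes that had such a probe set, and the others, SDHA among them, kept one with a shared-probe ending. The median of complex II was 0.093 with this choice. Over all genes, calls at an adjusted p of 0.05 numbered 1 with the filter at the 70th percentile, 2 with median centring and 2 with robust eBayes. With 1 array left out, which assumes that the lone array varies like the other group, subunit genes separated higher ran from 9 to 61, separated lower from 2 to 26, and above 0 from 27 to 70. Over all genes 29.1% to 36.5% were then separated higher and 30.2% to 33.3% lower, and calls over all genes from 0 to 6. Medians ran from −0.051 to 0.20 in complex I, −0.064 to 0.088 in II, −0.036 to 0.27 in III, −0.035 to 0.17 in IV and −0.016 to 0.21 in V. The cause of these shifts was not tested.

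The replicate numbers are not stated to mark a shared culture. Same-numbered arrays deviated from their group means with a correlation of 0.36 over all genes, which are not independent replicates, and −0.07 over the subunit genes, a measure that removes the shift shared by the subunit genes, of which 94.6% and 83.8% were higher on array 1 with rhSTIP1 and in controls. The replicate block called 247 of the 12296 tested genes and 0 of the 74 subunit genes. At so small a share few calls would fall among 74 genes, so the 0 says little about them.

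Of 29 named and tested genes, signs turned in 16 of 316 values from alternatives that keep all arrays. With quantile normalization these were ATP5MC3 (−0.060), ATP5MG (−0.057), COX4I1 (−0.069), COX6A1 (−0.033) and UQCRB (−0.00627). With the mean of all probe sets they were ATP5F1E (−0.17), ATP5MC2 (−0.20), COX4I1 (−0.069), COX6A1 (−0.041), NDUFS4 (−0.019), UQCR11 (−0.18), UQCRC2 (−0.060) and SDHC (0.065). SDHC was also positive with median centring (0.011) and with probe sets without shared-probe endings (0.32), where UQCR11 was −0.56. With 1 array left out, 23 of 116 values turned. The ranges were −0.00770 to 0.32 for ATP5F1D, −0.026 to 0.37 for ATP5F1E, −0.063 to 0.22 for ATP5MC2, −0.14 to 0.19 for ATP5MC3, −0.16 to 0.21 for ATP5MG and −0.016 to 0.26 for ATP5PF. In complex IV they were −0.10 to 0.17 for COX4I1, −0.023 to 0.12 for COX6A1, −0.11 to 0.34 for COX6B1, −0.52 to 0.016 for COX7A1 and −0.27 to 0.12 for COX8A. For NDUFB10 the range was −0.00306 to 0.43, for SDHA −0.31 to 0.041, for SDHC −0.32 to 0.26, for SDHD −0.031 to 0.22, for UQCRC2 −0.015 to 0.24 and for UQCRQ −0.058 to 0.30.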
